A study of Mus musculus with 2 samples.

Results

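Itgb1, Itgav, Spp1, Thbs1, Cav2, Arhgap5 and Rdx encode integrin subunits, matricellular ligands of integrins, and proteins that link adhesion sites to the membrane and to actin. These 7 genes, of 1285 in the authors' deposited gene table, were chosen by having a YTHDF2 peak there, so the presence and size of those peaks are given as a description and not tested. They hold 7 of the 1541 peaks in that table. A further 11 of the 9271 peaks in the full list overlap their gene bodies, which makes 18 in all.

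The cells were wild-type C2C12, a mouse myoblast line, turned into myotubes in medium with 2% horse serum and given no other treatment. The groups were 1 library of RNA recovered with a YTHDF2 antibody (RNA immunoprecipitation, RIP) and 1 library of input RNA, both with batch label 1. An IgG control that the design names was not analysed here, and the labels word the library steps for DNA. The comparison asks which stretches of RNA were more abundant in the YTHDF2 pulldown than in the input, and with 1 library a group no value has a replicate. In bulk lysate, fewer cells with a transcript and less of it per cell cannot be told apart. The files hold no expression levels: of 16 myotube and myoblast markers, Mylpf and Ttn had a peak over the gene body, and of 9 markers of other cell types 0 had. With a peak over the body of 15.0% of all protein-coding genes, these counts do not check the cell type.

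YTHDF2 is a cytoplasmic protein that recognises N6-methyladenosine (m6A) in RNA and recruits deadenylases to the transcripts it binds. Integrins are heterodimers of an alpha and a beta subunit that hold cells to the matrix, and in muscle the beta 1 subunit anchors myotubes and myofibres to the basement membrane. Matricellular proteins such as osteopontin and thrombospondin are secreted into the matrix and signal through integrins and other receptors without being structural. Inside the cell, regulators of small GTPases, caveolins and the ezrin, radixin and moesin family tie adhesion to membrane tension and to actin.

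The 7 listed peaks fell into a set with high input background and low fold enrichment, and a pair with low background and higher fold. Fold enrichment is the authors' linear ratio of RIP pileup to input background at the summit, with 1 added to both. The median over the 7 peaks was 1.92 (range 1.44 to 6.06), where all 1541 listed peaks had a median of 3.25. RIP pileup exceeded input background at all 7 summits, as peak calling requires. Their median background was 52.0 pileup units, against 15.0 for all listed peaks. The other 17 genes of the focal adhesion pathway in the table had a median highest fold of 3.55, and all 1285 genes one of 3.43. Only Arhgap5 reached a fold of 4 by its listed peak, 1 of 7 members, where 37.2% of the genes in the table did.

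**Figure D1:**
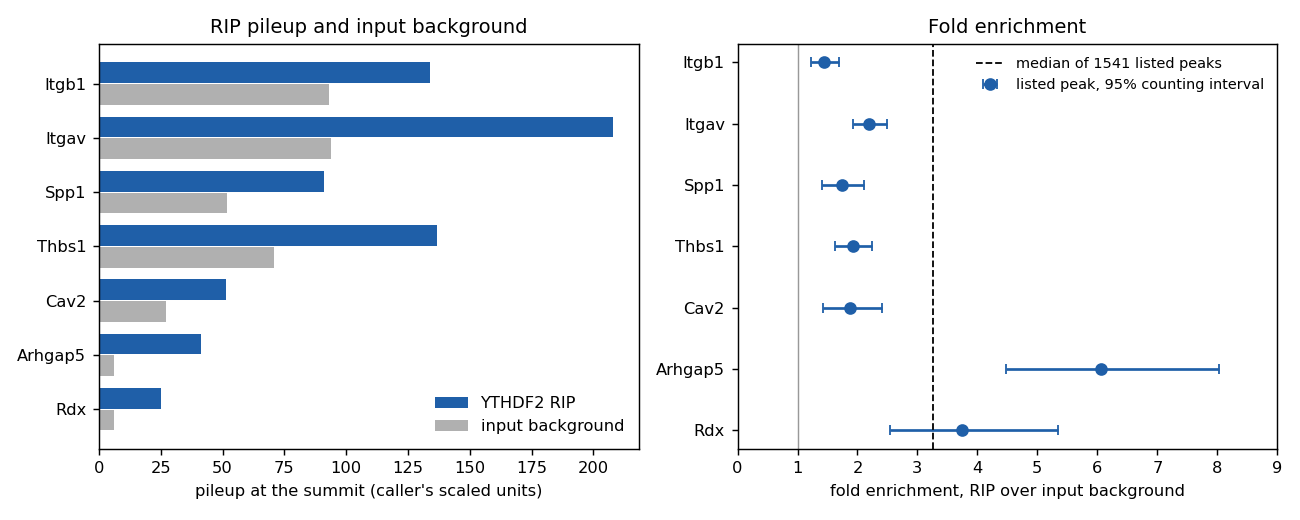
Left, pileup at the summit of each listed peak in the YTHDF2 RIP library (blue) and the input background there (grey), in the caller's scaled units. Right, fold enrichment with its 95% counting interval (points and bars), the median of 1541 listed peaks (dashed line) and a fold of 1 (grey line). Arhgap5 and Rdx lie above the median and the other members below it.

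The m6A consensus is written DRACH, where D stands for A, G or T, R for A or G, and H for A, C or T. GGACH is its narrower form. To show what consensus each listed peak offers, 1 site of its exonic part is printed with its flanks on the plus strand, from RefSeq GRCm38 (the same build as mm10). It is the GGACH nearest the summit, or the nearest DRACH where the exonic part has no GGACH. Capitals mark the consensus.
Itgb1: gacaccgacccgAGACCctccgagaggcg
Itgav: aaaggtttctttGGACTtggtccttttat
Spp1: aaatatgttgcaGGACTaactacgaccat
Thbs1: aatagagatctcAGACTatgtagatatgc
Cav2: gctaccatagggTAACTttctttgtaaga
Arhgap5: tataaacaaaggGGACAtttgaaatgaag
Rdx: cttatgtatgggAAACCatgaactgtaca

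Itgav, Spp1 and Arhgap5 have a GGACH in exon sequence, and the other 4 do not. The Itgb1 stretch lies at chr8:128685880-128685908, 15 bases past the summit. The Itgav stretch lies at chr2:83806264-83806292, with its site 200 bases past the summit. The Spp1 stretch lies at chr5:104436362-104436390, with its site 104 bases past the summit, and it ends inside the start codon. These printed sites thus lie on the 3' side of their summits. The Thbs1 site, at chr2:118126793-118126821, is the only one of the 7 before its summit, by 43 bases. The Cav2 stretch lies at chr6:17287724-17287752, 28 bases past the summit, that of Arhgap5 at chr12:52570368-52570396, 81 bases past, and that of Rdx at chr9:52069665-52069693, 3 bases past.

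Itgb1 encodes integrin beta 1, the partner of many alpha subunits, and had the lowest fold of the 7. Its listed peak, on chromosome 8 from 128685873 to 128686423 (mm10, plus strand), held a RIP pileup of 134.1 (149 fragments) over an input background of 93.0, a fold of 1.44 (95% counting interval 1.22 to 1.69). Among 55 listed peaks of like background, taken as 20% below to 25% above, it ranked 53 by fold. Its −log10 q-value of 1.89 was the lowest of the members, where the lowest in the whole list was 1.43.

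The summit lay in the 5' UTR, in exon 1 and 226 bases into the 3815-base transcript Itgb1-201, but only 6 bases from the peak's start. Exon 1 covers 87 of the peak's 551 bases, and the other 464 lie in intron 1. The peak had a GC content of 69.9%, the highest of the 18 member peaks, where all listed peaks had a median of 44.8%. Of its 9 DRACH sites, only the printed AGACC lies in the exon.

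Itgav encodes integrin alpha v, a receptor for matrix proteins that carry an arginine-glycine-aspartate motif, and had the most RIP fragments of the 7. The peak lies on chromosome 2 from 83805961 to 83806306 (plus strand), with a RIP pileup of 207.9 (231 fragments) over an input background of 94. Its fold was 2.20 (1.93 to 2.50). By fragments it ranked 10 of the 1541 listed peaks, and by fold 1275. Itgb1 has nearly the same background, and with background held fixed the intervals of the pair do not overlap. Among 54 listed peaks of like background, with a median fold of 1.78, Itgav ranked 5.

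The Itgav summit lay in exon 30, in the 3' UTR, 2746 bases past the stop codon and 838 bases before the transcript end. Of 9 annotated isoforms, 2 hold the summit in an exon, and Itgav-204 ends 2093 bases before it.

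Spp1 encodes osteopontin, a secreted phosphoprotein that binds alpha v integrins, and Thbs1 encodes thrombospondin 1, which binds integrins and CD47 and can activate latent TGF-beta. The Spp1 peak lies on chromosome 5 from 104436259 to 104436560 (plus strand), with a RIP pileup of 90.9 (101 fragments) over an input background of 52.0. Its fold was 1.73 (1.42 to 2.10), rank 143 among 161 listed peaks of like background. The Thbs1 peak lies on chromosome 2 from 118126797 to 118126985 (plus strand), with 136.8 (152 fragments) over an input background of 70.9 and a fold of 1.92 (1.63 to 2.25). It ranked 47 among 99 listed peaks of like background, whose median fold was 1.91. The intervals of both ligands overlap each other and that of Itgav. Overlap of intervals is no test of a difference, and the order of these 3 was not tested.

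The authors marked the Spp1 peak for start codon, coding sequence and 5' UTR. Which element the summit falls in depends on the isoform. It lies in the 5' UTR of 4 of 7 annotated isoforms and in the first intron of the other 3. In Spp1-204, which starts inside that intron, the summit is 117 bases before the start codon. Spp1 also shares these bases with Gm42793, a transcript on the same strand that GENCODE lists as yet to be proved by experiment, so reads of either cannot be told apart. The start codon, shown because the peak spans it, stands in capitals in the 30 bases from 104436376 to 104436405.
Spp1 start codon: actaactacgaccATGagattggcagtgat

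The Thbs1 peak is the shortest of the 7, at 189 bases, and lies wholly in the last exon. Its summit is 1824 bases past the stop codon and 283 bases before the annotated transcript end, at 95.2% of the transcript length. Repeats or low-complexity sequence, as masked in the RefSeq assembly, made up 47.1% of the peak, and its GC content was 29.6%. All listed peaks had medians of 9.81% and 44.8%.

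Cav2 encodes caveolin 2, which forms hetero-oligomers with caveolin 1 in the flask-shaped membrane pits called caveolae. Its peak lies on chromosome 6 from 17287419 to 17287902 (plus strand), with a RIP pileup of 51.3 (57 fragments) over an input background of 27 and a fold of 1.87 (1.42 to 2.41). That fold was low for its background, rank 227 among 241 listed peaks whose median was 2.59. The summit lies in the 3' UTR, 666 bases past the stop codon and near the middle of the transcript, at 48.6% of its length. It is 272 bases beyond the end of Cav2-203, so of 3 isoforms only Cav2-201 holds it. Gm15581 lies on the opposite strand, with no exon under the peak, and the files give no strand for the fragments.

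Arhgap5 encodes a GTPase-activating protein that acts downstream of integrins, and had the highest fold of the 7. Its listed peak lies on chromosome 12 from 52570153 to 52570453 (plus strand), with a RIP pileup of 41.4 (46 fragments) over an input background of 6 and a fold of 6.06 (4.47 to 8.03). It ranked 153 of the 1541 listed peaks by fold and 22 among 167 of like background, whose median was 4.51. With background held fixed, the interval of Arhgap5 lies above those of the other members except Rdx.

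The Arhgap5 peak falls in the distal 3' UTR, 2966 bases past the stop codon, and only Arhgap5-204 reaches it. Arhgap5-201 and Arhgap5-202 end 2449 and 1466 bases before the summit. Masked repeats made up 53.2% of the peak, where all listed peaks had a median of 9.81%. The long non-coding gene Gm35188 spans the locus on the opposite strand, with no exon under any Arhgap5 peak.

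Rdx encodes radixin, which links membrane proteins to actin filaments. Its listed peak, on chromosome 9 from 52069602 to 52069821 (plus strand), held a RIP pileup of 25.2 (28 fragments) over an input background of 6 and a fold of 3.74 (2.54 to 5.35). It has the same background as Arhgap5 and overlapping intervals, but the fewest fragments of the 7, and it ranked 126 among 167 listed peaks of like background. It is the only listed member peak marked for coding sequence alone. Its summit lies in exon 9, which covers 164 of the peak's 220 bases and is part of all 3 isoforms. That exon, from 52069615 to 52069778, is printed as the coding stretch that carries the peak. Capitals mark both of its m6A consensus sites, 3 and 10 bases past the summit.
Rdx exon 9: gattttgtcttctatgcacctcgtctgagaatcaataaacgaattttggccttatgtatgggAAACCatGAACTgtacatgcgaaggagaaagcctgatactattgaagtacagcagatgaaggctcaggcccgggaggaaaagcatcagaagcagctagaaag

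Of the 21 pairs among the 7 listed peaks, 11 had intervals that do not overlap. Rdx and Arhgap5 against the other 5 members made up 10 of these, and Itgb1 against Itgav was the other. These intervals hold background fixed, so counting error in the background of 6 for Arhgap5 and Rdx is left out. Rdx (from 2.54) clears Itgav (to 2.50) only narrowly, and non-overlap is no test of a difference. The pair with the highest folds, Arhgap5 and Rdx, also had the lowest background. Background is the denominator of fold, and a peak of high background could be listed at a lower fold (from 1.40 among listed peaks of like background to Itgb1, and from 2.59 for Rdx), so peaks were ranked among those of like background as well.

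**Figure D2:**
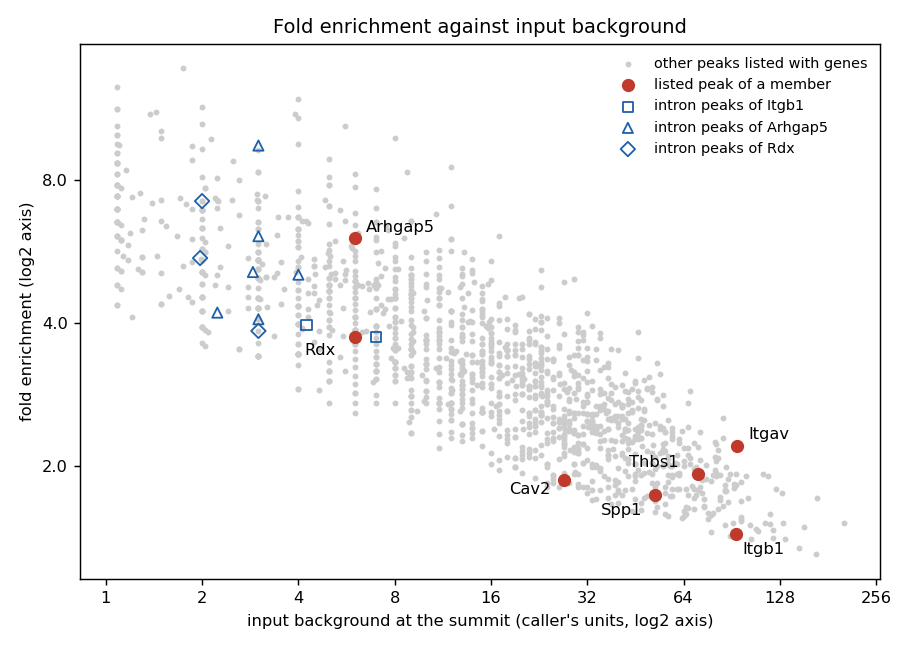
Fold enrichment (log2 axis) against input background at the summit (log2 axis) for peaks listed with genes (grey), the listed peaks of the 7 members (red) and the intron peaks of Itgb1, Arhgap5 and Rdx (open blue). Itgav lies near the upper edge of peaks with a background near 94, and Itgb1 near the lower edge.

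By the authors' marks, 4 of the 7 peaks lay in 3' UTRs alone (Itgav, Thbs1, Cav2 and Arhgap5). The summit gave the same 4. In the authors' deposited element table, 44.6% of listed peaks were in 3' UTRs. The 4 summits were 666 to 2966 bases past the stop codon, with none over it. The summits of Itgb1 and Spp1 stood at 5.92% and 5.38% of the transcript length, and that of Rdx at 28.2%.

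**Figure D3:**
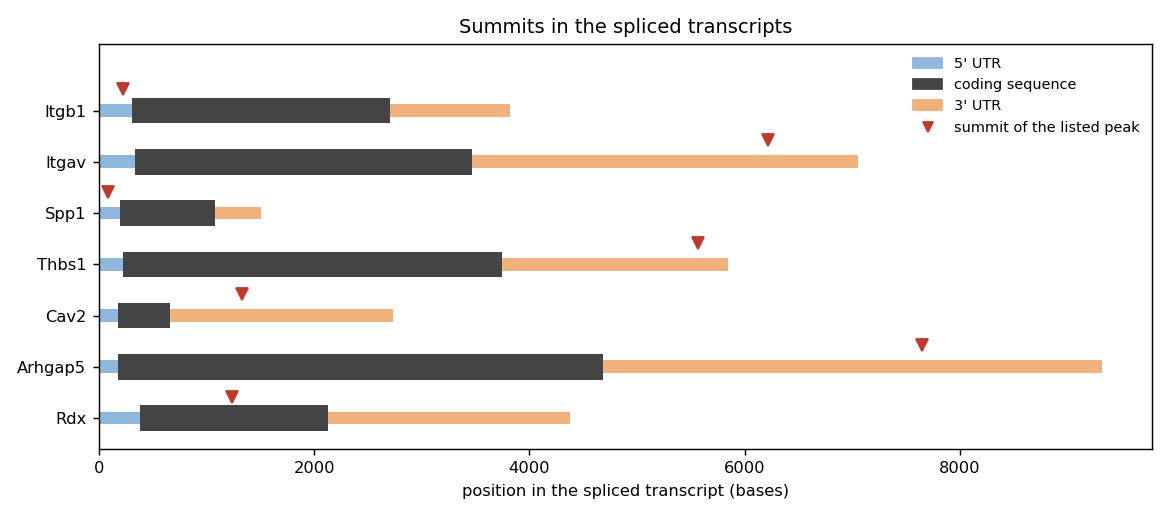
Spliced transcripts drawn to scale in bases, with 5' UTR (light blue), coding sequence (dark) and 3' UTR (orange), and the summit of each listed peak (red triangle). Itgb1 and Spp1 have summits near the 5' end, Rdx in coding sequence, and the other 4 in 3' UTRs.

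The authors' element classes (start codon, stop codon, coding sequence, 5' UTR and 3' UTR) include no introns. Peaks over a gene body that the gene table leaves out thus lie in introns largely by construction. All 11 such member peaks do, and they belong to Arhgap5 (6 peaks), Rdx (3) and Itgb1 (2). These 3 of 7 members compare with 43.3% of protein-coding genes in the table that also have a peak outside it over the gene body. The intron peaks had a median fold of 5.06 (range 3.74 to 9.48) over a median background of 3, where all peaks outside the table had 4.58 over 4.28. Of the 11, 8 reached a fold of 4, and of all 9271 peaks, listed ones included, 59.6% did. The share among peaks outside the table alone was not counted, but their lower quartile was 3.61.

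Arhgap5 holds the strongest of the 18 peaks. It lies in intron 3 on chromosome 12 from 52545996 to 52546269, with a RIP pileup of 36.9 (41 fragments) over an input background of 3 and a fold of 9.48 (6.87 to 12.8). It ranked 19 among the 1186 peaks of like background in the full list. The other intron peaks of Arhgap5 ranged from 4.08 (2.48 to 6.37) to 6.10 (4.07 to 8.82), and their intervals overlap that of its 3' UTR peak. They lie in introns 2, 3 and 4, and 2 pairs of neighbouring summits are 763 and 420 bases apart. Masked repeats made up 71.2% of the strongest peak, where peaks outside the table had a median of 36.3%.

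The 3 intron peaks of Rdx lie in intron 1, between 5.95 and 9.43 kb from the start of Rdx-201. The middle one, on chromosome 9 from 52055314 to 52055565, held a RIP pileup of 20.7 (23 fragments) over an input background of 2.00, a fold of 7.23 (4.71 to 10.7). Its neighbours stood at 3.85 (2.31 to 6.10) and 5.49 (3.34 to 8.58), and all 3 intervals overlap that of the exon 9 peak.

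Both intron peaks of Itgb1 also lie in intron 1. The first, from 128690780 to 128690976, held a RIP pileup of 28.8 (32 fragments) over an input background of 6.98 and a fold of 3.74 (2.60 to 5.22). The second, from 128701619 to 128701838, held 19.8 (22 fragments) over an input background of 4.24 and a fold of 3.97 (2.56 to 5.91). With background held fixed, both intervals lie above that of the 5' UTR peak, whose background of 93.0 was far higher. Among peaks of like background in the full list the first ranked 918 of 1438 and the second 1210 of 1602.

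**Figure D4:**
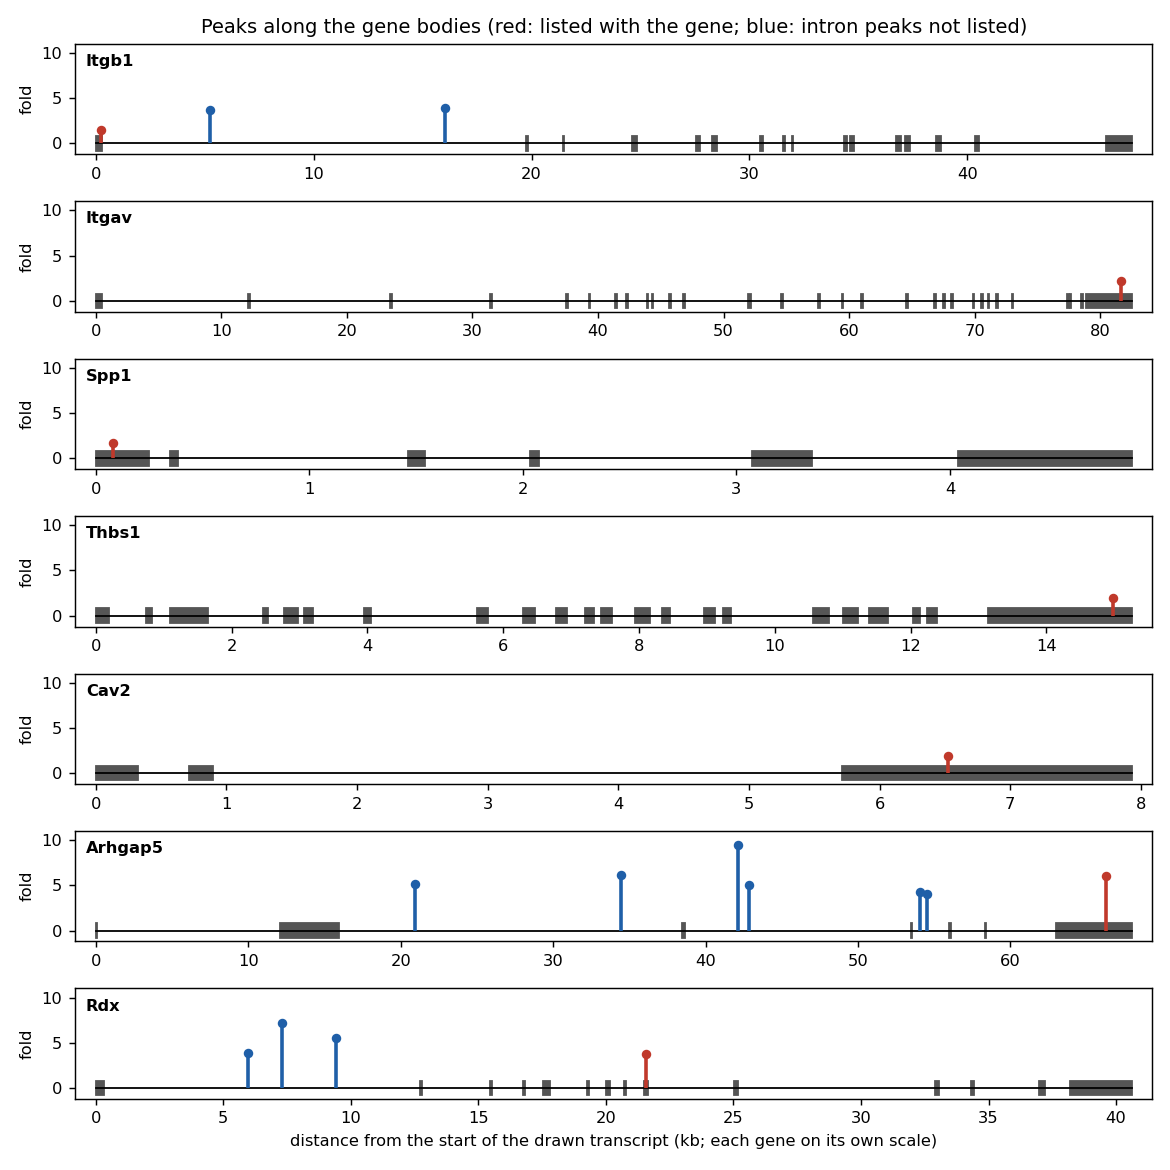
Fold enrichment of each peak (height) along its gene, by distance of the summit from the start of the drawn transcript in kb, with exons as dark boxes. Red marks the 7 peaks listed with their genes and blue the 11 intron peaks, which stand in Itgb1, Arhgap5 and Rdx.

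DRACH and GGACH were searched on the strand of the gene. All GGACH sites are also DRACH sites. The 7 listed peaks held 47 DRACH sites in 2393 bases, 19.6 per kb, where all listed peaks held 17.8 per kb. Within 100 bases of the summit the density was 12.1 per kb, against 17.8 in the same windows of all listed peaks. In these windows of equal length, 6 of 7 member peaks held a DRACH, with Itgav the exception, and 95.7% of all listed peaks did. GGACH was within 100 bases of 1 of 7 summits, that of Arhgap5, and in 40.9% of all such windows.

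Over whole peaks, GGACH was in 5 of 7 (all but Thbs1 and Cav2), where 47.3% of listed peaks held it. Peak lengths differ, with a median of 302 bases for the members and 230 for all listed peaks. By density the sets were alike, at 2.51 GGACH per kb in the member peaks and 2.51 in all listed peaks. The member peaks held 6 GGACH sites, all on the 3' side of the summit by 81 to 382 bases. Of the sites in all listed peaks, 50.8% were on that side. The summits of Itgb1 and Spp1 stand 6 and 13 bases from the start of their peaks, which leaves little sequence on the other side. In Itgb1 and Rdx the GGACH sites lie in intron sequence. AUUUA, the core of AU-rich elements that shorten the life of many transcripts, was within 100 bases of 2 summits, and 18.9% of all such windows held it. The polyadenylation hexamer AAUAAA was near 1 summit, that of Rdx in its coding exon, and in 8.61% of all such windows.

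**Figure D5:**
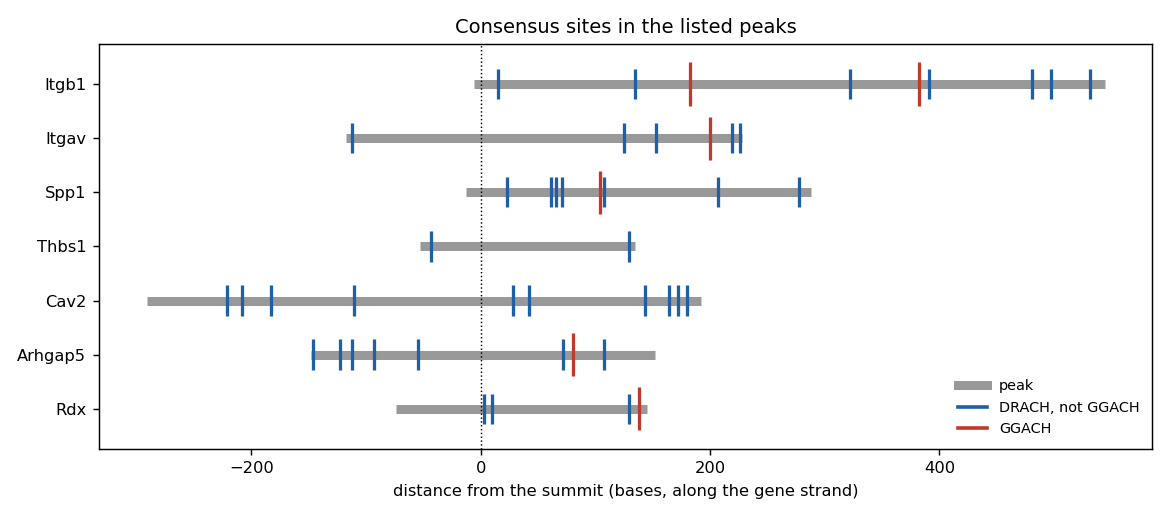
Each listed peak as a grey bar by distance from its summit in bases along the gene strand, with DRACH sites that are not GGACH in blue and GGACH sites in red. The 6 GGACH sites all lie to the right of the summit, and Thbs1 and Cav2 have none.

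The members were set among 131 genes of 7 lists on integrin adhesion. In the gene table were 13 of these, 9.92%, where 5.82% of 21924 protein-coding genes were, but 7 of the 13 are the members, chosen for it. Of the 124 other genes, 6 were in the table, 4.84%. Over gene bodies, with introns, 23 of these 124 had a peak, 18.5%, and 15.0% of protein-coding genes did. These pooled shares lean on 1 list whose separate counts are not reported. Without it, a choice made after seeing the data, 3 of 111 other genes were in the table, 2.70%, and 18 had a peak over the gene body, 16.2%.

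The 6 others in the table were Postn, Col3a1, Lims1, Rasa1, Rock1 and Rock2. Among integrin subunits, 2 of 26 were in the table, both of them members. Among matricellular genes, 3 of 23 were: Thbs1, Spp1 and periostin (Postn), which had a fold of 6.64 (3.98 to 10.5) in coding sequence from 16 fragments over a background of 1.32. Among matrix ligands of integrins, 1 of 23 was, the collagen Col3a1, at 1.52 (1.29 to 1.77) over a background of 91.0, close to Itgb1 in both.

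Among adhesion adaptors, 1 of 28 was in the table, Lims1, which encodes PINCH1 and stood at 2.46 (1.98 to 3.01). Cav2 was the only 1 of 10 caveolar genes in it, and Rdx the only 1 of 7 membrane linkers. The remaining 3 genes in the table belong to the list left out above. The kinase Rock1 stood at 6.32 (4.44 to 8.75), the kinase Rock2 at 3.72 (2.88 to 4.72), and Rasa1, a negative regulator of Ras, at 1.34 (1.17 to 1.53).

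Of 219 KEGG pathways in the authors' deposited table, 23 held a member. Values of p and FDR there are the authors' own, from Fisher's exact test. Focal adhesion held 6 members, all but Rdx. It counted 23 genes with peaks where 11.1 were expected, and its FDR of 0.0358 in the authors' deposited table is from the exact test. Regulation of actin cytoskeleton held Itgb1, Itgav and Rdx, and the authors' deposited table gives it an FDR of 0.0138. Pathways in cancer held Itgb1 and Itgav, also at 0.0358 in the authors' deposited table. ECM-receptor interaction, the pathway of integrins with their ligands, held Itgb1, Itgav, Spp1 and Thbs1. It counted 7 genes where the authors' deposited table expected 4.77, which missed the FDR threshold of 0.05 (exact test, FDR 0.565). PI3K-Akt signaling held the same 4 members among 30 genes, against 18.5 expected, and also missed it in the authors' deposited table (FDR 0.0719). Since the members were picked from these pathways, the counts describe them and do not support them.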

How the data were processed

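The series' design text names Bowtie for alignment to mm10 and MACS for calling peaks of 1 YTHDF2 RIP library over 1 input library. Per the submitters' processing notes, DiffBind, deepTools, HOMER, Picard, Trim Galore and FastQC were used too, with roles and versions unstated. Per the file headers, the deposited peak list holds a pileup signal, a fold enrichment (a ratio), and p-values and q-values as −log10. The deposited KEGG table holds gene counts with a Fisher p-value and FDR, and the deposited element table holds counts and percent of peaks. These peak scores are the authors'.

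Pileup was a whole multiple of 0.9 in all 9271 peaks, within a tolerance of 1e-06, so 1 step is taken here as 1 RIP fragment. Total depth is unknown. The input background is (pileup + 1) / fold − 1, and a Poisson tail with it matched the deposited −log10 p to within 0.01 in all 9271 peaks. Intervals at 95% are exact Poisson for RIP fragments alone, with background held fixed. They cover counting error only, and PCR copies are not independent fragments. Gene models are GENCODE M21 and sequence is GRCm38 from RefSeq, the same build as mm10. Of 1285 table genes, 1269 matched by symbol and 12 by synonym. The drawn transcript was the best-ranked principal isoform, then the longest coding sequence. Motifs in all listed peaks were counted over 1557 peaks by strand, since a peak listed for genes on both strands counts for each.

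Members and lists were chosen with earlier results of these data known. The 7 members, list genes in the gene table, and up to 4 further genes per list by fold over the gene body are named, except 1 gene of the list below. Interval and motif code was tested on simulated data. Python 3.11.15, scipy 1.17.1 and pysam 0.24.0 were used. The separate counts of 1 adhesion list, which includes Arhgap5, Rasa1, Rock1 and Rock2, are not reported here. It was not left out for its values, and pooled counts are given with and without it.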

Additional observations from a re-analysis of the deposited data

How the results depend on the processing

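No paired analysis was possible because each group has 1 library, and no library could be left out. Of the 7 listed member peaks, 4 had a −log10 q-value of at least 5. Over all 1541 listed peaks its lower quartile was 4.87 and its median 8.21, so most passed that cut. Of the 7, 1 reached the median fold of the full list, 4.4, and 1 a fold of 4 (Arhgap5 in both). All listed peaks had an upper quartile of 4.525, and 37.2% of the genes in the table had a listed peak at a fold of 4. With all peaks over gene bodies, 2 members reached a fold of 4, Arhgap5 and Rdx, against 1 by listed peaks. The share of all genes that did so over gene bodies was not counted, but 59.6% of all 9271 peaks reached that fold. The count of 2 is therefore not read as high or low. Of the 11 intron peaks, 7 had a −log10 q-value of at least 5, where all peaks outside the table had a lower quartile of 4.47 and a median of 6.87. Genes of the adhesion lists with a peak numbered 13 in the gene table and 30 over gene bodies. Of the 13, 3 had a listed peak at a fold of 4 or more, where 37.2% of the genes in the table did. A −log10 q-value of at least 5 was reached by 8 of the 13, a cut that most listed peaks passed. Without 1 list, 9 were in the gene table. These changes follow from the filters by construction. The DRACH density of listed member peaks, 19.6 per kb, was 12.1 within 100 bases of the summits, 22.1 on the opposite strand and 20.1 in windows beside the peaks. The cause was not tested. The count of 3' UTR peaks by summit or centre, the count of intron peaks by centre or by an overlap of at least 50%, and the 3 pathways that hold a member at an FDR under 0.05, of 4 at that FDR, did not change. Member folds at low background rest on few fragments, which widens their intervals, and the member peak with the fewest held 14.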

Other observations

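Beyond the members, several adhesion genes that the gene table leaves out had peaks over their gene bodies. Peak counts here are not scaled by gene length, and each fold is the highest over the gene body. Ptk2, which encodes focal adhesion kinase, held 11 peaks, the strongest at a fold of 7.26 (95% counting interval 4.95 to 10.3). That fold rests on 29 fragments over a background of 2.73. Lims1 held 12 peaks, of which 2 are in the table. Other adaptors with 1 peak each were the talin Tln2 at 5.25 (3.35 to 7.89), the integrin beta 1 binding protein Itgb1bp1 at 5.07 (3.08 to 7.93) and Crk at 4.30 (3.07 to 5.88). The integrin subunits Itgb5 and Itga7 had 1 peak each, at 3.36 (2.22 to 4.89) and 2.88 (2.24 to 3.65).

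Among matrix genes, fibrillin 1 (Fbn1) reached 6.66 (4.65 to 9.27), the laminin chain Lama4 6.10 (3.47 to 10.1) and Col4a1 4.08 (2.17 to 7.16). These folds rest on 33 fragments over a background of 3.61, 13 over 1.08 and 10 over 1.45. A background of 1.08 is the lowest in the full list. Lamb3 had 1 peak at 3.52 (2.52 to 4.79), which the table lists with another gene. The matricellular Ccn5 had 1 at 1.65 (1.38 to 1.96), from 129 fragments over a background of 70.0. Moesin (Msn), a relative of radixin, had 2 peaks, the stronger at 3.67 (2.81 to 4.70). Arhgef12 had 3, up to 7.68 (5.36 to 10.7).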
